A study of Mus musculus with 22 samples.

Results

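Axon guidance ligands and receptors were followed across mouse tumours that carry the SS18-SSX fusion, lack Smarcb1, or both. The set held every gene of the count table whose symbol belongs to the Eph receptor, ephrin, semaphorin, plexin, Slit, Robo, netrin or Unc5 families, which gave 65 of 48440 gene IDs. They were 9 Eph A receptors, 5 Eph B receptors, 8 ephrins, 20 semaphorins, 9 plexins, 3 Slits, 4 Robo receptors, 3 netrins and 4 Unc5 receptors. The rule used symbols alone and no measured value, but it was set with earlier results of these data known. Of the 65 members, 64 passed the filter on low counts and were tested. The remaining one, Epha6, an Eph receptor, had at most 0.813 CPM (counts scaled to library size) in any library.

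RNA from fresh frozen tumours was sequenced in 22 libraries of 6 groups, set by the sample titles. Combined tumours, labelled SS18-SSX+/- and Snf5-/-, had 4 libraries with Myf5Cre and 4 with TATCre. Snf5-null tumours, labelled SNF5-/-, had 3 libraries titled Myf5 and 5 with TATCre. Tumours labelled SS18-SSX+/- had 3 libraries titled Myf5 and 3 with no Cre stated. Snf5 is the older name of Smarcb1, which belongs to the BAF complex that moves nucleosomes, and SS18-SSX is the fusion protein that defines synovial sarcoma and joins the same complex. Myf5 is a gene of myogenic progenitors whose Cre allele acts in that lineage, and TATCre is a Cre protein that enters cells; every tumour also holds host cells in which Cre need not have acted. Ages are not in the labels, and the strain label counts up by 1 per sample from C57BL/6 to C57BL/27. Separate animals are not stated for every library, and the Snf5-null TATCre libraries N43L and N43R have a common tag, so each p-value reflects spread between samples that may be partly technical. All combined and Snf5-null libraries carry a single series number and the SS18-SSX libraries carry others, so in comparisons with SS18-SSX tumours genotype and number series cannot be told apart.

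These families steer growing axons and migrating cells through contact or secreted cues. Ephrins are membrane-bound ligands of the Eph receptor tyrosine kinases, with A ephrins held by a lipid anchor and B ephrins crossing the membrane, and both partners can signal into their own cell. Semaphorins signal through plexins, and most secreted Sema3 proteins also need a neuropilin. Slits bind Robo receptors and mostly repel, while netrins attract through Dcc and repel through Unc5 receptors. Outside the nervous system the same families act in vessels, in muscle and bone, and in immune cells, where Sema4a and Sema4d are known.

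To show the sequence at start sites of members that went separate ways, promoter windows of 300 bases are given for 4 of them. Each has the largest fold change among members of its pattern with a window, and so was chosen with values known. The fold change ranked was that of combined against Snf5-null tumours for Epha8 and Sema4a. It was that of combined against SS18-SSX tumours for Sema5b and of Snf5-null against SS18-SSX tumours for Epha4. Windows are from RefSeq on GRCm38.p6 and run from 250 bases before to 50 bases after the start. Capitals mark each CG pair, the site of DNA methylation. Epha8 was higher in combined and SS18-SSX tumours than in Snf5-null tumours (chr4:136956767-136957066, minus strand). Sema5b was high in SS18-SSX tumours and low in both others (chr16:35541112-35541411, plus strand). Epha4 took a middle level in combined tumours (chr1:77515039-77515338, minus strand). Sema4a was lowest in combined tumours (chr3:88458835-88459134, minus strand, the window with most CG pairs of its 4).
Epha8: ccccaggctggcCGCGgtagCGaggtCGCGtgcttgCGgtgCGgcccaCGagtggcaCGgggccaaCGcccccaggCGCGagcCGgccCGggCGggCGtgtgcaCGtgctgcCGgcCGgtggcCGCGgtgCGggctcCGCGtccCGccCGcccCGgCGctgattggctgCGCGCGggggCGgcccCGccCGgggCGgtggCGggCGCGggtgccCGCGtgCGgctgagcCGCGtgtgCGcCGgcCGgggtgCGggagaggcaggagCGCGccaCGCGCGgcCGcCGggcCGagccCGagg
Sema5b: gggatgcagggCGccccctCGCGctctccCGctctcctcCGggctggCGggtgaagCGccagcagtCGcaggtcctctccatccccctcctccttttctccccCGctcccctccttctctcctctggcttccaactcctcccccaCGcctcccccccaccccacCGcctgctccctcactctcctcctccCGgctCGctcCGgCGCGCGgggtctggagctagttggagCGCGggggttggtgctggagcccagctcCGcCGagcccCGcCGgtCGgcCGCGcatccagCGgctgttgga
Epha4: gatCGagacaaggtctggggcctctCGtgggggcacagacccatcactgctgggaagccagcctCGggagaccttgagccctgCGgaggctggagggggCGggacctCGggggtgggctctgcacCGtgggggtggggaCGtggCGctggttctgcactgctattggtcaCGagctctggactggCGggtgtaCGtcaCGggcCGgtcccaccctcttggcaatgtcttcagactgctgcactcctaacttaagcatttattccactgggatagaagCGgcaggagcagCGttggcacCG
Sema4a: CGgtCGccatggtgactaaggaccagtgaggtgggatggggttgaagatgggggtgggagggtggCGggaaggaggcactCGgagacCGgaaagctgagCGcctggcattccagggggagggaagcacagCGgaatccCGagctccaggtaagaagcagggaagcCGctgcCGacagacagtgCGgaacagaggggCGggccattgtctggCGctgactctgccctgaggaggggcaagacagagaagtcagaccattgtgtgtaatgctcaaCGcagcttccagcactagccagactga
The windows hold 56 CG pairs at Epha8, 27 at Sema5b, 17 at Epha4 and 14 at Sema4a. The pair C then G was searched as CG, which reads the same on both strands. Of 17491 protein-coding genes with a window, 0.292% had at least as many pairs as Epha8, 22.7% as many as Sema5b, 45.8% as many as Epha4 and 52.0% as many as Sema4a. Over the 56 members with a window the median was 23 CG pairs, against 15 over those protein-coding genes and 8 over all 27025 genes with a window; the narrower background was chosen after the wider one was seen. These counts are descriptions of the letters and say nothing of methylation, which was not measured.

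Total counts ran from 14834030 to 18062578 in combined, 16059420 to 21807838 in Snf5-null and 8642648 to 25177722 in SS18-SSX libraries, the lowest being the SS18-SSX library A. Smarcb1, the targeted gene, had a lowest, median and highest level of 0.909, 2.56 and 3.66 CPM in combined, 10.6, 14.6 and 26.9 CPM in Snf5-null and 47.1, 79.7 and 111 CPM in SS18-SSX libraries, without overlap, so it was low where the labels say it was deleted, though not equally low. The summed level of 12 macrophage and myeloid markers was 108 to 1080 CPM in combined, 2430 to 9460 CPM in Snf5-null and 124 to 856 CPM in SS18-SSX libraries. Summed over 12 mature muscle markers it was 336 to 4300 CPM in combined, 731 to 26800 CPM in Snf5-null and 12.8 to 15400 CPM in SS18-SSX libraries. Sums of 9 neuronal markers were 37.4 to 201 CPM in combined, 113 to 330 CPM in Snf5-null and 71.8 to 273 CPM in SS18-SSX libraries. Sums of 12 endothelial markers overlapped, at 213 to 527 CPM in combined, 219 to 552 CPM in Snf5-null and 189 to 796 CPM in SS18-SSX libraries. Fibroblast markers, 10 in all, summed to 623 to 9820 CPM in combined, 6010 to 20300 CPM in Snf5-null and 618 to 14700 CPM in SS18-SSX libraries. No macrophage, muscle or endothelial marker was at 0 throughout a group; the neuronal gene Elavl4 was at 0 in all Snf5-null Myf5 libraries, and the T cell genes Cd3d, Cd3e, Cd3g, Cd8a and Cd8b1 in all combined Myf5 libraries. In such bulk tissue, fewer cells of a type and less RNA per cell cannot be told apart. Library N1 of the Snf5-null TATCre group stood apart from its group for 7 members.

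Set per kilobase of exon so that genes can be added, the members reached a summed level of 725 ± 146 CPM per kb in combined tumours, 539 ± 62.3 in Snf5-null tumours and 1020 ± 284 in SS18-SSX tumours (SD, n = 8, 8 and 6). Ephrins had totals of 97.5 ± 10.1 CPM per kb in combined, 32.7 ± 7.19 in Snf5-null and 123 ± 31.6 in SS18-SSX tumours, and no Snf5-null library reached the lowest of the others (47.2 at most, against 79.4 at least). Eph B totals had the same order, at 68.6 ± 17.4 CPM per kb in combined, 34.9 ± 13.0 in Snf5-null and 95.4 ± 30.8 in SS18-SSX tumours. Eph A totals were 91.3 ± 32.8 in combined, 36.0 ± 17.9 in Snf5-null and 101 ± 34.8 in SS18-SSX tumours. Slit totals were 85.4 ± 84.5 in combined, 14.7 ± 13.0 in Snf5-null and 172 ± 89.9 in SS18-SSX tumours. Robo totals of SS18-SSX tumours, 31.7 ± 5.51 CPM per kb, did not overlap those of combined (11.0 ± 5.68) or Snf5-null tumours (5.81 ± 1.74). Semaphorin totals ran the other way, with 141 ± 72.3 CPM per kb in combined, 219 ± 36.2 in Snf5-null and 124 ± 22.9 in SS18-SSX tumours, and Unc5 totals averaged 56.6 ± 18.2 in combined, 27.7 ± 12.6 in Snf5-null and 39.0 ± 15.5 in SS18-SSX tumours. Plexin totals were 122 ± 28.5 in combined, 104 ± 27.7 in Snf5-null and 209 ± 71.6 in SS18-SSX tumours, and netrin totals 51.2 ± 35.5 in combined, 64.8 ± 28.0 in Snf5-null and 130 ± 34.9 in SS18-SSX tumours. These totals are descriptions with no test.

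**Figure D1:**
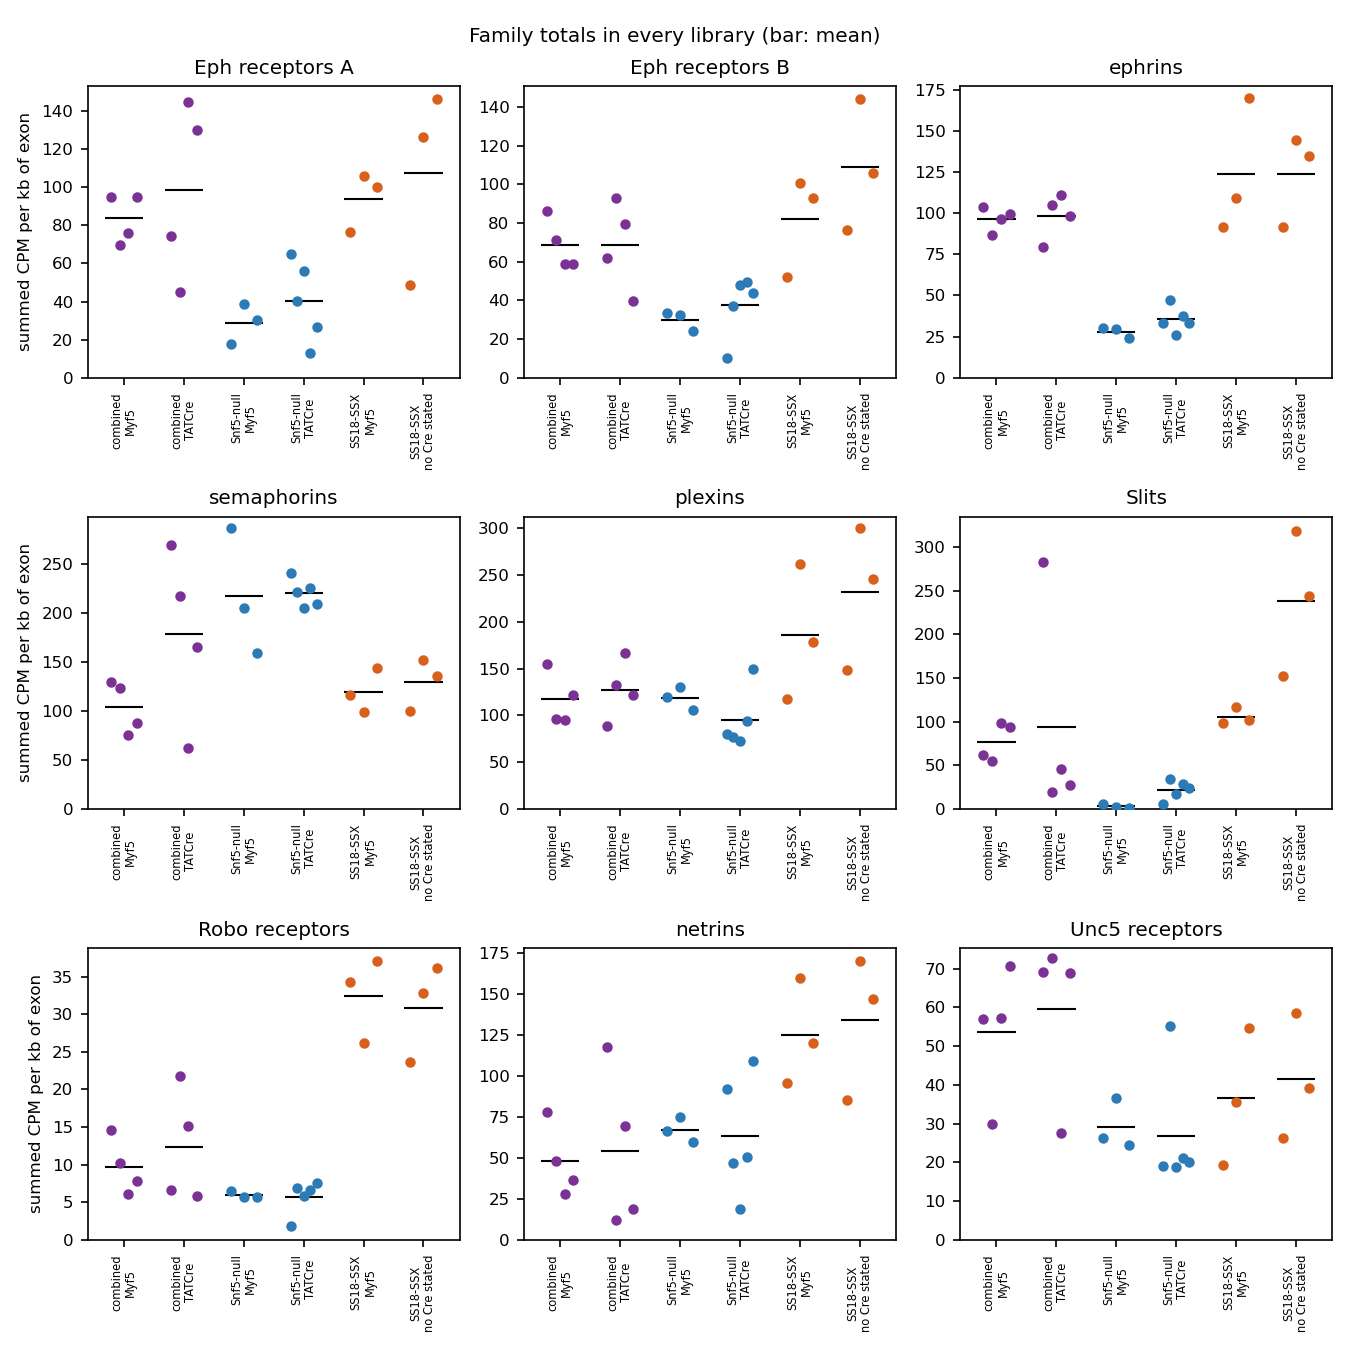
Summed level of each family in CPM per kb of exon (y axis) in every library (points), by group (x axis); bars are group means. Ephrin totals of Snf5-null libraries lie between 24.5 and 47.2, below all others, while Robo totals of SS18-SSX libraries lie between 23.6 and 37.1, above all others.

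**Figure D2:**
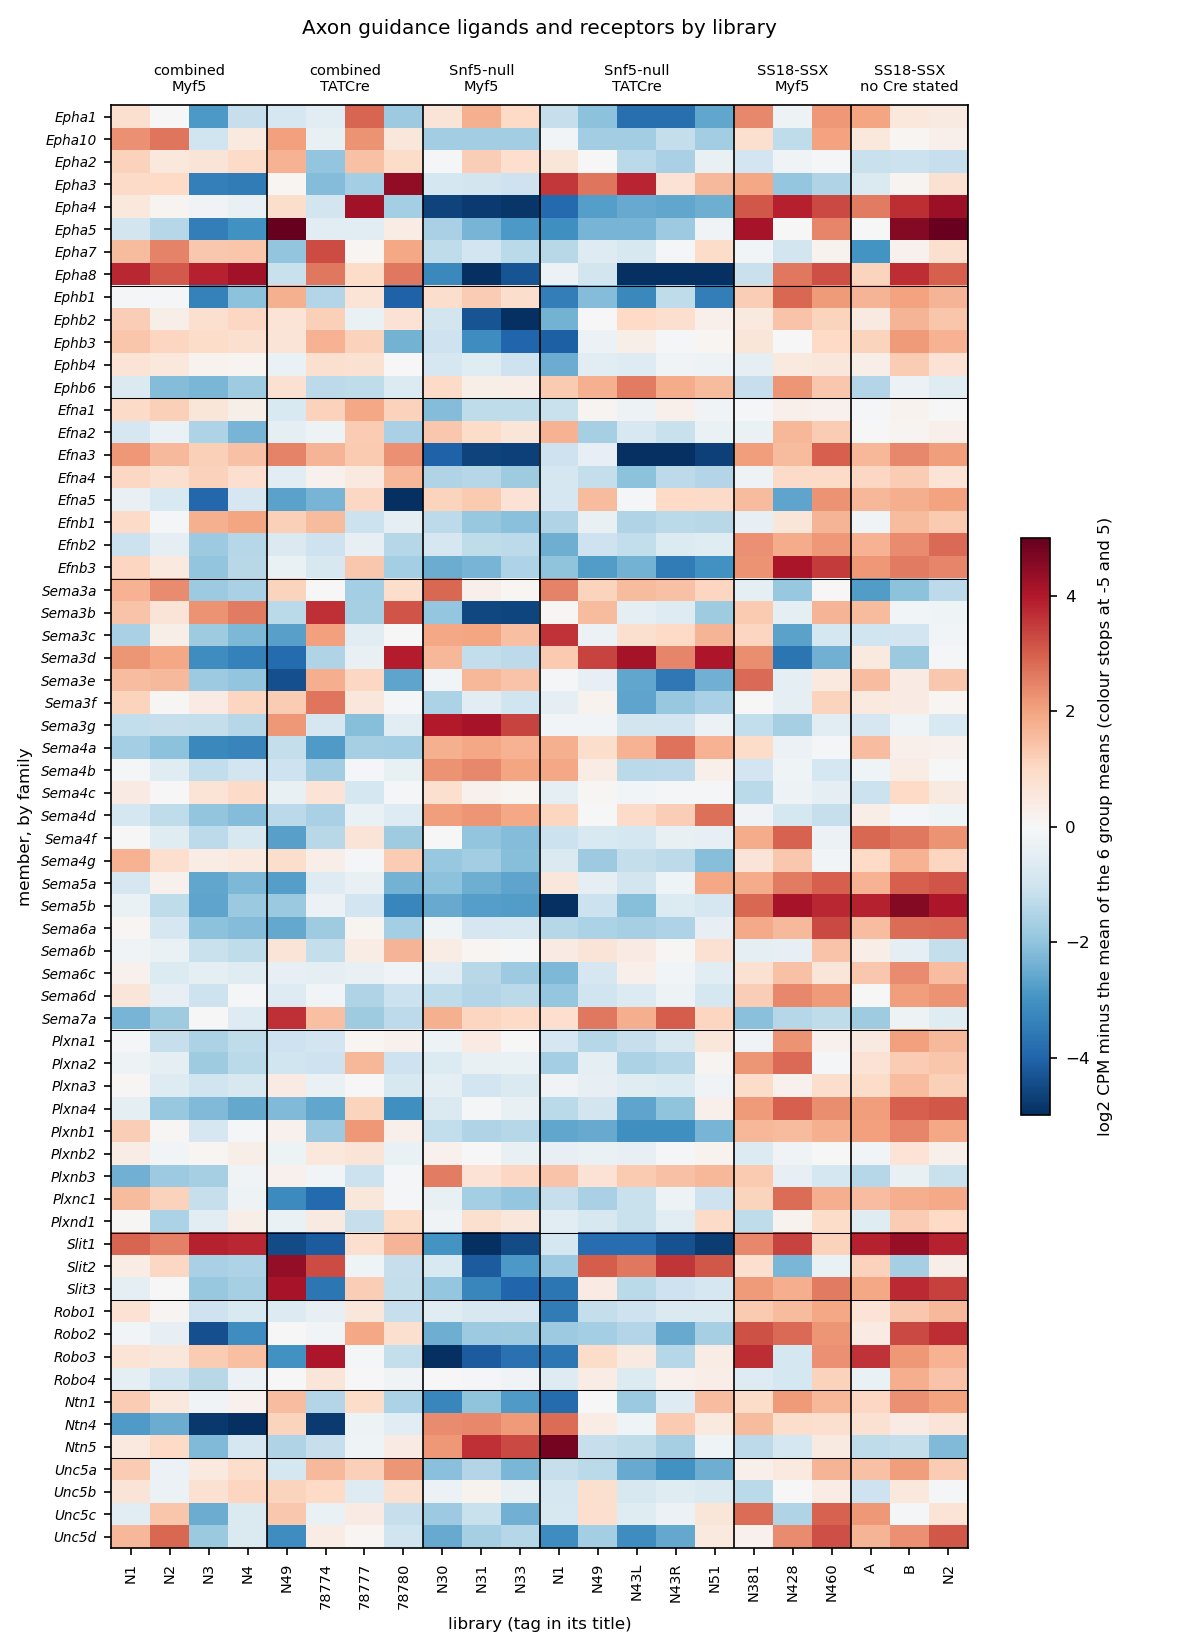
Log2 CPM of the 64 tested members (rows, by family) in the 22 libraries (columns, by group), each row centred on the mean of the 6 group means; red is higher, blue lower. Rows such as Sema5b and Plxna4 are red in the 6 SS18-SSX libraries, and rows such as Efna3 are blue in the 8 Snf5-null libraries.

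Combined against Snf5-null tumours sets tumours with the fusion beside tumours without it, all lacking Smarcb1. Most calls on Eph receptors, ephrins, Slits, Robo and Unc5 receptors were higher in combined tumours, while semaphorins and netrins split. In edgeR's quasi-likelihood test, 25 members were higher and 10 lower at an adjusted p below 0.05, which is 39.1% and 15.6% of the 64, where 29.1% of all 18929 genes tested were called higher, 20.5% lower and 49.6% either way. This background moved with single libraries. Without Snf5-null Myf5 N30, N31 or N33, 15.9%, 16.5% and 18.2% of all genes were higher and 19.3%, 20.5% and 21.5% lower. Lower calls thus outnumbered higher ones, while 20 members were higher and 10 lower in each of those fits. The balance also turned without combined Myf5 N1 (22% higher, 23% lower) or N4 (19.6% and 21.4%). Leaving out any 1 SS18-SSX library turned it too, though those libraries are not in this contrast. All genes were then 20.8% to 22.8% higher and 22.3% to 23.4% lower, with a median log2 fold change of 0.097. The members' median log2 fold change was 0.70, against 0.24 for all genes; another scaling moved the median of all genes to 0.12, a shift to set beside the fold changes here. Without Snf5-null TATCre library N1 the counts were 27 and 9. All 12 macrophage markers, 8 of 10 T and NK cell markers, 6 of 7 B cell markers, 7 of 12 muscle markers and 6 of 10 fibroblast markers were lower in combined tumours in the same test. Of the fibroblast markers, 1 was higher. Endothelial markers split, with 2 higher and 3 lower, and neuronal markers likewise had 2 higher and 3 lower. All 5 red blood cell markers were higher, with sums of 50.4 to 1280 CPM in combined and 7.17 to 228 CPM in Snf5-null libraries. The part of these cells in the members' differences was not tested.

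Of 8 Eph A receptors tested, 5 were higher in combined tumours and 0 lower; of 5 Eph B receptors, Ephb2, Ephb3 and Ephb4 were higher and Ephb6, a receptor without kinase activity, was lower. Epha8 had 197, 122, 209 and 272 CPM in combined Myf5 and 6.74, 89.8, 27.9 and 91.0 CPM in combined TATCre libraries, against 1.47, 0 and 0.625 CPM in Snf5-null Myf5 and 11.9, 7.53, 0, 0 and 0.0488 CPM in Snf5-null TATCre libraries. It was at most 1.47 CPM in 6 Snf5-null libraries, while N1 and N49 of the TATCre group passed combined library N49. Its log2 fold change was 5.98 ± 1.22 (SE, adjusted p = 0.000668). Epha4, a receptor that binds ephrins of both classes, had 56.3, 43.2, 34.6 and 30.1 CPM in combined Myf5 and 71.4, 20.7, 728 and 12.0 CPM in combined TATCre libraries, against 1.47, 1.29 and 1.25 CPM in Snf5-null Myf5 and 2.56, 5.70, 6.72, 6.39 and 7.03 CPM in Snf5-null TATCre libraries. Every combined library was above every Snf5-null one, although library 78777 lay far above its group, and the log2 fold change was 5.06 ± 0.73 (adjusted p = 2.7e-05). Epha10, which also lacks kinase activity, had a lowest, median and highest level of 0.0776, 0.958 and 2.35 CPM in combined libraries and at most 0.233 CPM in Snf5-null libraries, with 0 in all 3 of the Myf5 label. It was called higher, but its fitted fold rests on near-zero counts and is not given. Epha5 was called higher at 2.55 ± 0.93 (adjusted p = 0.0291), a call lost in 5 of the fits that leave out 1 library. Combined TATCre N49 had 198 CPM, and without it the log2 fold change was 0.99 (adjusted p = 0.236). In Myf5 libraries alone Epha5 was at 0.38 (adjusted p = 0.847). Ephb2 without Snf5-null Myf5 library N30 had 2.89 in place of 1.79, and lost the call without N31 (1.41, adjusted p = 0.053), in TATCre libraries alone (0.35, adjusted p = 0.707) and in a model of genotype alone (0.88, adjusted p = 0.232).

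Of 8 ephrins, 5 were higher in combined tumours (Efna1, Efna3, Efna4, Efnb1 and Efnb3) and Efna5 was lower. Efna3, a lipid-anchored ephrin, had 63.5, 43.04, 31.7 and 38.7 CPM in combined Myf5 and 77.2, 46.1, 34.9 and 68.9 CPM in combined TATCre libraries, against 0.734, 0.448 and 0.438 CPM in Snf5-null Myf5 and 6.74, 10.3, 0.220, 0.218 and 0.439 CPM in Snf5-null TATCre libraries. The genotypes did not overlap, and the log2 fold change was 5.16 ± 0.74 (adjusted p = 2.54e-05). Efna4, its close neighbour on chromosome 3, had a lowest, median and highest level of 8.05, 21.4 and 38.5 CPM in combined and 2.81, 4.36 and 6.68 CPM in Snf5-null libraries, again without overlap (2.29 ± 0.29, adjusted p = 7.12e-06). Efnb1, a transmembrane ephrin, had 19.3, 87.0 and 159 CPM in combined and 9.38, 15.0 and 31.7 CPM in Snf5-null libraries, with log2 fold change 2.48 ± 0.44 (adjusted p = 0.000212); the genotypes overlapped because Snf5-null TATCre N49, at 31.7 CPM, passed the combined TATCre libraries 78777 and 78780. Efnb3 had 0.543, 1.63 and 6.43 CPM in combined and 0.109, 0.362 and 0.750 CPM in Snf5-null libraries (2.74 ± 0.55, adjusted p = 0.000622). Efna5 was called at -1.79 (adjusted p = 0.0473), a call lost in 12 of the fits that leave out 1 library, and without combined TATCre 78777 it was -2.96.

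Among 20 semaphorins, the ligands of plexins, 3 were higher in combined tumours (Sema3b, Sema3f and Sema4g), 5 were lower (Sema3c, Sema3g, Sema4a, Sema4b and Sema4d) and 12 had no call. Sema4a, a transmembrane semaphorin of immune cells, had 1.34, 1.02, 0.388 and 0.364 CPM in combined Myf5 and 1.98, 0.555, 1.40 and 1.35 CPM in combined TATCre libraries, against 16.0, 18.0 and 15.7 CPM in Snf5-null Myf5 and 16.3, 8.55, 15.6, 30.8 and 15.9 CPM in Snf5-null TATCre libraries. Every combined library was below every Snf5-null one, with log2 fold change -4.05 ± 0.39 (adjusted p = 3.96e-07). Sema4d, also known from lymphocytes and a ligand of Plxnb1, had a lowest, median and highest level of 5.15, 9.59 and 19.0 CPM in combined and 23.3, 73.6 and 161 CPM in Snf5-null libraries, without overlap (-2.99 ± 0.35, adjusted p = 2.53e-06). Both differences ran with the macrophage marker sums given above, 108 to 1080 CPM in combined and 2430 to 9460 CPM in Snf5-null libraries, and the part of those cells was not tested. In the opposite direction, secreted Sema3b had 4.03, 48.9 and 168 CPM in combined and 0.438, 6.03 and 39.6 CPM in Snf5-null libraries (3.72 ± 0.82, adjusted p = 0.00126), with overlap. Sema4g had 4.09, 6.85 and 14.3 CPM in combined and 0.875, 1.17 and 2.56 CPM in Snf5-null libraries without overlap (2.54 ± 0.33, adjusted p = 9.29e-06).

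Plexins, the receptors of semaphorins, mostly did not differ past the threshold: 1 of 9 was higher, 1 lower and 7 had no call. Plxnb1 had a lowest, median and highest level of 5.67, 22.1 and 90.8 CPM in combined and 2.29, 3.66 and 8.53 CPM in Snf5-null libraries (2.63 ± 0.42, adjusted p = 7e-05). Its ligand Sema4d was lower in the same comparison. Only the combined TATCre library 78774 fell within the Snf5-null range. Plxnb3 had 0, 0.300 and 0.586 CPM in combined and 0.886, 1.44 and 3.45 CPM in Snf5-null libraries (-2.71 ± 0.57, adjusted p = 0.00082). Plxnb2, a receptor of Sema4 proteins, had 395, 570 and 780 CPM in combined and 372, 429 and 580 CPM in Snf5-null libraries and no call.

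Slit1 and Slit3, secreted repellents, and Robo2 and Robo3, of the Robo family, were higher in combined tumours, with 0 members of either family lower. Slit1 had 290.2, 222, 553 and 525.6 CPM in combined Myf5 and 1.61, 2.04, 66.9 and 124 CPM in combined TATCre libraries, against 4.69, 0.448 and 1.62 CPM in Snf5-null Myf5 and 21.0, 2.60, 2.64, 1.75 and 1.32 CPM in Snf5-null TATCre libraries. Within the combined tumours the Myf5 libraries were all above the TATCre ones, of which N49 and 78774 lay in the Snf5-null range; the log2 fold change over both Cre labels was 5.25 ± 0.96 (adjusted p = 0.000267). Robo3, which tunes the response to Slits at the midline, had 0.586, 8.64 and 92.1 CPM in combined and 0, 1.16 and 10.7 CPM in Snf5-null libraries (4.12 ± 1.03, adjusted p = 0.00331), and the log2 fold change was 2.53 without combined TATCre 78774. The call on Robo3 was lost in TATCre libraries alone and in a model of genotype alone. Robo2 had 0.310, 7.96 and 34.3 CPM in combined and 1.42, 2.47 and 3.08 CPM in Snf5-null libraries (1.82 ± 0.55, adjusted p = 0.0111), with the combined Myf5 libraries N3 and N4 under every Snf5-null one. Robo2 was at 1.57 without Snf5-null Myf5 N30 (adjusted p = 0.0542) and at 0.88 in Myf5 libraries alone (adjusted p = 0.419). Slit3 was called at 2.58 ± 0.79 (adjusted p = 0.0123), and without combined TATCre N49, which alone had 1481 CPM, it was 1.43 (adjusted p = 0.0546). The call was also lost without Snf5-null Myf5 N31 or N33 and in Myf5 libraries alone (2.02, adjusted p = 0.197).

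Netrins split, with Ntn1 higher and Ntn4 and Ntn5 lower in combined tumours, while Unc5a, Unc5b and Unc5d, netrin receptors, were higher. Ntn4, a netrin of basement membranes, had 6.26, 8.07, 1.48 and 1.15 CPM in combined Myf5 and 98.3, 1.54, 38.2 and 30.3 CPM in combined TATCre libraries, against 233, 241 and 197 CPM in Snf5-null Myf5 and 311, 58.8, 38.7, 112 and 63.5 CPM in Snf5-null TATCre libraries. The Myf5 libraries of both genotypes lay far apart and the TATCre libraries overlapped (-3.59 ± 0.62, adjusted p = 0.000156). Unc5a had 7.10, 27.6 and 62.7 CPM in combined and 1.53, 2.84 and 5.99 CPM in Snf5-null libraries without overlap (2.996 ± 0.43, adjusted p = 2.52e-05). Ntn5 was called at -3.38 ± 1.04 (adjusted p = 0.0125), and without Snf5-null TATCre N1, which held 14.8 CPM, it was -1.22 (adjusted p = 0.138). Ntn1 at 1.83 lost the call without Snf5-null Myf5 N30 or N33 or combined Myf5 N1 (1.53 to 1.65). It was at 0.48 in TATCre libraries alone (adjusted p = 0.645) and at 0.96 in a model of genotype alone (adjusted p = 0.226). Unc5d at 2.47 and Unc5b at 0.87 had adjusted p of 0.041 and 0.0375, and lost the call in 15 and 13 of the fits that leave out 1 library and both under RLE scaling and with no filter, Unc5b under DESeq2 too.

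**Figure D3:**
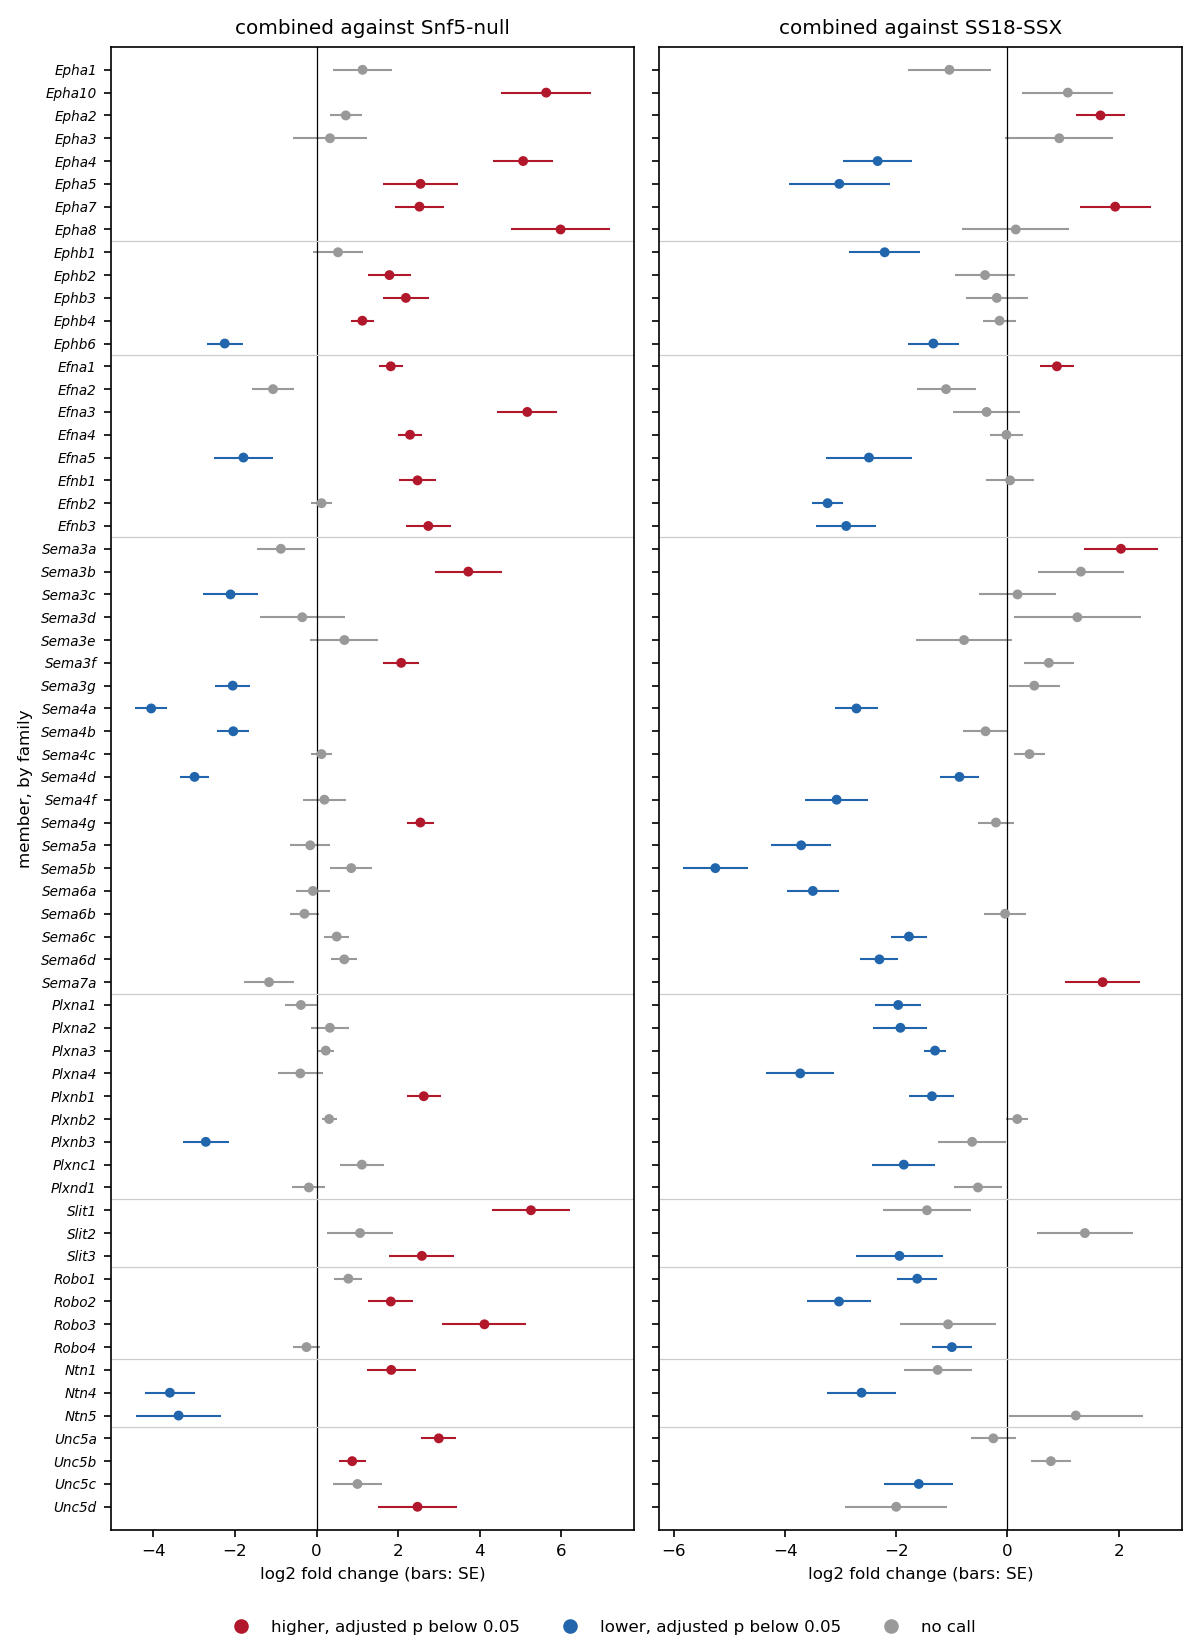
Log2 fold change of each tested member (x axis; bars are SE; y axis, members by family) for combined against Snf5-null tumours (left) and against SS18-SSX tumours (right); red and blue mark adjusted p below 0.05. On the left 25 members are red and 10 blue, with the calls on Unc5 receptors all red; on the right 27 are blue and 5 red; the point of Epha10 on the left is a fitted value set by near-zero counts.

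The Myf5 and TATCre libraries are separate sets, so the combined against Snf5-null comparison can be made in each. Both contrasts were taken from the fit of all 22 libraries and share its estimate of the spread. With Myf5 libraries 19 members were higher and 9 lower (29.7% and 14.1%, against 15.7% and 15.3% of all genes), and with TATCre libraries 20 were higher and 3 lower (31.2% and 4.69%, against 18.1% and 13.9%). Called higher in both were 14 of 64 members, or 21.9%, where 7.73% of all genes were: Epha4, Epha7, Epha8, Epha10, Ephb4, Efna1, Efna3, Efna4, Efnb1, Efnb3, Sema4g, Plxnb1, Slit1 and Unc5a. Called lower in both were 3, or 4.69%, where 8.66% of all genes were: Ephb6, Sema4a and Sema4d. No member was called in opposite directions. Same signs were seen in 76.6% of members and in 75.9% of all genes. Sema3g changed sign, at 1.03 in TATCre libraries (adjusted p = 0.159) and -5.14 in Myf5 libraries (adjusted p = 4.26e-05). Ntn4 had -5.71 in Myf5 libraries (adjusted p = 0.000311) and -1.47 in TATCre libraries (adjusted p = 0.147).

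**Figure D4:**
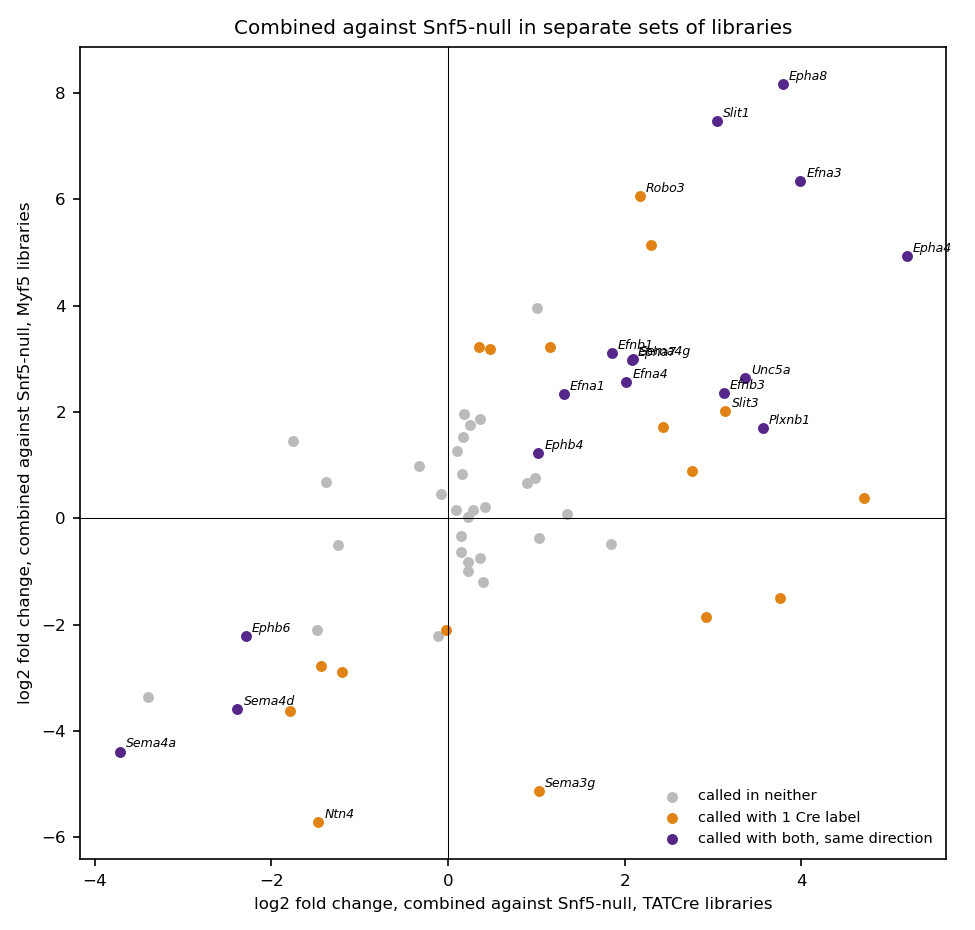
Log2 fold change of combined against Snf5-null tumours in TATCre libraries (x axis) and in Myf5 libraries (y axis), one point per tested member except Epha10, whose Snf5-null Myf5 libraries are all at 0. Purple members were called in the same direction with both Cre labels; Sema3g lies at 1.03 on the x axis and -5.14 on the y axis.

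Combined against SS18-SSX tumours sets tumours without Smarcb1 beside tumours that keep it, all with the fusion. All class A plexins, both Sema5 and 3 of 4 Sema6 semaphorins, 3 of 4 Robo receptors and Efnb2 were lower in combined tumours. In edgeR's quasi-likelihood test 27 of 64 members were lower and 5 higher (42.2% and 7.81%), where 21.9% of all genes were lower, 23.1% higher and 45% either way. The members' median log2 fold change was -0.93, against -0.09 for all genes. Macrophage marker sums, 108 to 1080 CPM in combined and 124 to 856 CPM in SS18-SSX libraries, overlapped, and 0 of the 12 markers were called. Endothelial markers were lower in combined tumours for 4 of 12, mural markers for 3 of 7 and T and NK cell markers for 4 of 10. Of the T and NK cell markers 1 was higher, and 2 of 5 red blood cell markers were higher. Epithelial markers were lower for 2 of 8, with 0 higher. Of 9 neuronal markers, 3 were higher and 1 lower. B cell markers were lower for 7 of 7, but their sums were 0.485 to 10.0 CPM in combined libraries, against 980 CPM in SS18-SSX Myf5 N381, 600 CPM in library A and 1.22 to 9.68 CPM in the other 4 SS18-SSX libraries. The part of these cells was not tested. With Myf5 libraries alone 22 members were lower and 1 higher, where 16.9% of all genes were lower and 15.5% higher. For combined TATCre against SS18-SSX libraries with no Cre stated, 15 were lower and 1 higher, where 9.6% of all genes were lower and 14.4% higher.

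Semaphorins gave 8 lower and 2 higher of 20. Sema5b, a transmembrane semaphorin, had 4.28, 2.17, 0.776 and 1.39 CPM in combined Myf5 and 1.39, 4.32, 2.69 and 0.451 CPM in combined TATCre libraries, against 40.6, 95.7 and 74.5 CPM in SS18-SSX Myf5 libraries and 79.9, 134 and 89.6 CPM in those with no Cre stated. No combined library came near an SS18-SSX one, and the log2 fold change was -5.26 ± 0.58 (adjusted p = 7.94e-06). Its relative Sema5a had a lowest, median and highest level of 3.59, 9.50 and 29.4 CPM in combined and 83.1, 175 and 225 CPM in SS18-SSX libraries (-3.71 ± 0.54, adjusted p = 6.77e-05), also without overlap. Sema6a, a ligand of Plxna2 and Plxna4, had 3.66, 6.62 and 24.6 CPM in combined and 65.5, 119 and 218 CPM in SS18-SSX libraries (-3.50 ± 0.46, adjusted p = 3.03e-05). Sema4f had 0.220, 0.964 and 3.33 CPM in combined and 1.69, 11.9 and 16.9 CPM in SS18-SSX libraries (-3.07 ± 0.57, adjusted p = 0.000378), with overlap. Sema6c, Sema6d, Sema4a and Sema4d were lower too, at -1.77, -2.30, -2.72 and -0.86; the call on Sema4d was lost in 17 of the fits that leave out 1 library. Secreted Sema3a and lipid-anchored Sema7a were higher, at 2.04 and 1.71. The call on Sema7a was lost in 12 of the fits that leave out 1 library, under RLE scaling (adjusted p = 0.0521) and with no filter (adjusted p = 0.0637), and without combined TATCre N49 it was at 0.88 (adjusted p = 0.173).

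All 4 class A plexins were lower in combined tumours, and 6 of 9 plexins in all. Plxna4, a receptor for Sema3a and Sema6a, had 29.8, 11.1, 9.16 and 7.09 CPM in combined Myf5 and 9.08, 6.84, 91.2 and 4.88 CPM in combined TATCre libraries, against 183, 331 and 210 CPM in SS18-SSX Myf5 libraries and 180.2, 339.7 and 359 CPM in those with no Cre stated. Combined library 78777 was the highest of its genotype and still below every SS18-SSX library, and the log2 fold change was -3.73 ± 0.62 (adjusted p = 0.000164). Plxna1 had a lowest, median and highest level of 53.2, 79.6 and 184 CPM in combined and 144, 359 and 759 CPM in SS18-SSX libraries (-1.97 ± 0.41, adjusted p = 0.00102). Plxna2 had 10.5, 17.8 and 116 CPM in combined and 34.2, 90.4 and 259 CPM in SS18-SSX libraries (-1.93 ± 0.49, adjusted p = 0.00388), and Plxna3 was at -1.30. Plxnc1, the receptor of Sema7a, had 4.01, 55.8 and 186 CPM in combined and 134, 218 and 422 CPM in SS18-SSX libraries (-1.86 ± 0.56, adjusted p = 0.0121). These genotypes overlapped for Plxna1, Plxna2 and Plxnc1. The call on Plxna2 was lost for TATCre against no Cre stated (-0.93, adjusted p = 0.326) and that on Plxnc1 in Myf5 libraries alone (-1.36, adjusted p = 0.188). Plxnb1 lost its call in Myf5 libraries alone and for TATCre against no Cre stated (adjusted p = 0.0691 and 0.0942). Plxna1, Plxna3 and Plxna4 kept their calls in both.

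Eph receptors and ephrins were divided. Efnb2, the ephrin of arteries and a ligand of Ephb4, had 13.9, 21.2, 8.23 and 10.8 CPM in combined Myf5 and 17.4, 14.2, 22.1 and 10.7 CPM in combined TATCre libraries, against 144, 106 and 132 CPM in SS18-SSX Myf5 libraries and 97.5, 150.5 and 209.5 CPM in those with no Cre stated. The genotypes were far apart with little spread within each, at -3.24 ± 0.28 (adjusted p = 1.21e-06). Efnb3 had a lowest, median and highest level of 0.543, 1.63 and 6.43 CPM in combined and 11.5, 14.4 and 42.8 CPM in SS18-SSX libraries (-2.90 ± 0.54, adjusted p = 0.00038), without overlap, and Efna5 was at -2.49. Efna1 was the 1 ephrin called higher, at 0.89 (adjusted p = 0.0234), and lost the call without SS18-SSX Myf5 N381 or combined TATCre 78777 (0.81 and 0.69). Among receptors, Epha4 had 12.0, 38.9 and 729 CPM in combined and 241, 451 and 752 CPM in SS18-SSX libraries (-2.34 ± 0.62, adjusted p = 0.00541), or -3.63 without combined TATCre 78777. Epha5 was at -3.03, or -4.63 without combined TATCre N49 and -2.35 without SS18-SSX Myf5 N381 (adjusted p = 0.053), and Ephb1 and Ephb6 were at -2.21 and -1.33. Epha5 lost the call in a model of genotype alone (-1.56, adjusted p = 0.261). For TATCre against no Cre stated, Epha4 and Epha5 lost the call (-1.27 and -1.14, adjusted p = 0.288 and 0.517). Ephb6 lost the call without SS18-SSX Myf5 N428 (-0.93, adjusted p = 0.114) and without library B (adjusted p = 0.0679). Ephb1 lost it in a model of genotype alone (-2.08, adjusted p = 0.0546) and for TATCre against no Cre stated (-1.36, adjusted p = 0.273). Epha2 and Epha7 were higher in combined tumours, at 1.68 and 1.94 (adjusted p = 0.00475 and 0.019), and without combined TATCre 78774 Epha7 was at 1.39 (adjusted p = 0.0576).

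Robo1, Robo2 and Robo4 were lower in combined tumours, with 0 Robo receptors higher. Robo2 had 0.310, 7.96 and 34.3 CPM in combined and 11.8, 71.6 and 114 CPM in SS18-SSX libraries (-3.03 ± 0.57, adjusted p = 0.00043), overlapping at library A of the SS18-SSX group. Robo1, a main Slit receptor, had 53.0, 81.4 and 194 CPM in combined and 192, 326 and 448 CPM in SS18-SSX libraries (-1.62 ± 0.36, adjusted p = 0.00166), with only combined Myf5 N1 above the lowest SS18-SSX library. Endothelial Robo4 was at -1.0 (adjusted p = 0.0284) but lost the call in 5 of the fits that leave out 1 library, and was at -0.51 without SS18-SSX Myf5 N460 (adjusted p = 0.206), the library with the highest endothelial sum, 796 CPM; the part of those cells was not tested. Slit3 was at -1.94 (adjusted p = 0.0494), or -3.12 without combined TATCre N49, and lost the call in 18 of the fits that leave out 1 library. Of the netrins and their receptors, Ntn4 was lower at -2.63 ± 0.62 (adjusted p = 0.00238) and Unc5c at -1.60 (adjusted p = 0.0438), the call on Unc5c being lost in 17 of the fits that leave out 1 library. Ntn4 lost the call in a model of genotype alone (-1.84, adjusted p = 0.0613) and for TATCre against no Cre stated (-0.72, adjusted p = 0.553).

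**Figure D5:**
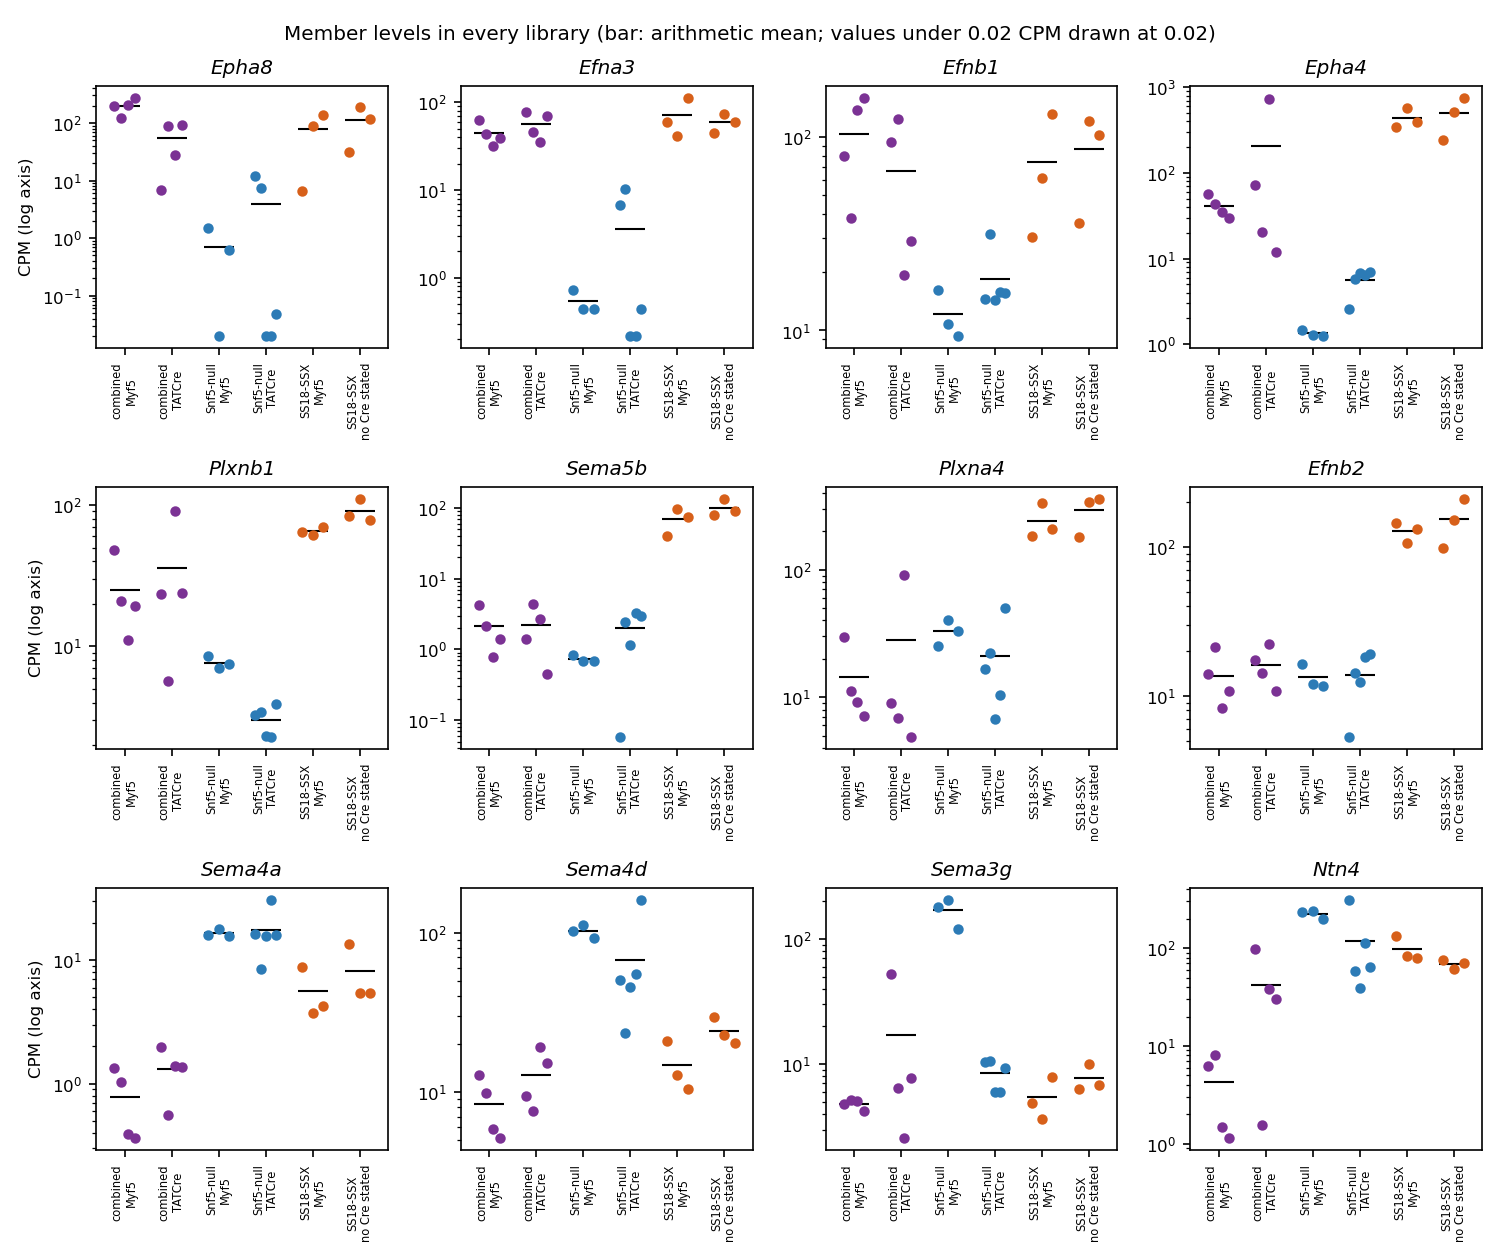
CPM on a log axis (y) of 12 members in every library (points) by group (x axis); bars are arithmetic means, and values under 0.02 CPM are drawn at 0.02. Epha8 and Efna3 are low in Snf5-null libraries, Sema5b, Plxna4 and Efnb2 are high in SS18-SSX libraries, Sema4a and Sema4d are high in Snf5-null libraries, and Sema3g is highest in the 3 Snf5-null Myf5 libraries, at 121 to 205 CPM.

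Snf5-null and SS18-SSX tumours, each with 1 of the 2 lesions, differed at 48 members, more than in either other comparison. Of the 64, 39 were lower and 9 higher in Snf5-null tumours (60.9% and 14.1%), where 25.9% of all genes were lower, 22.3% higher and 48.2% either way, with a median log2 fold change of -2.22 against -0.06 for all genes. This comparison shares its libraries with both others, so its values are set beside them rather than counted as further support. With Myf5 libraries alone 34 were lower and 5 higher, where 19.6% of all genes were lower and 14.4% higher. For Snf5-null TATCre against SS18-SSX libraries with no Cre stated, 32 were lower and 6 higher, where 17.6% were lower and 16.1% higher. Epha4 had 1.25, 4.13 and 7.03 CPM in Snf5-null and 241, 451 and 752 CPM in SS18-SSX libraries (-7.40 ± 0.84, adjusted p = 2.96e-06). Slit1 had 0.448, 2.17 and 21.0 CPM in Snf5-null and 85.1, 471 and 780 CPM in SS18-SSX libraries (-6.70 ± 1.06, adjusted p = 6.31e-05). Neither gene overlapped between the genotypes. Efna3 had 0.219, 0.444 and 10.3 CPM in Snf5-null and 41.8, 59.6 and 112 CPM in SS18-SSX libraries (-5.54 ± 0.77, adjusted p = 1.91e-05), beside 31.7 to 77.2 CPM in combined libraries. Plxnb1 had 2.29, 3.66 and 8.53 CPM in Snf5-null and 61.1, 74.3 and 110 CPM in SS18-SSX libraries (-3.99 ± 0.46, adjusted p = 3.55e-06). Ntn1, the founding netrin, had 13.7, 51.6 and 580 CPM in Snf5-null and 375, 713 and 967 CPM in SS18-SSX libraries (-3.09 ± 0.66, adjusted p = 0.000954), with Snf5-null TATCre N51 inside the SS18-SSX range. The 9 higher members were Sema3a, Sema3c, Sema3g, Sema4a, Sema4b, Sema4d, Sema7a, Plxnb3 and Ntn5, 7 of them semaphorins. Sema3a had 141, 324 and 958 CPM in Snf5-null and 18.7, 43.8 and 131 CPM in SS18-SSX libraries (2.92 ± 0.70, adjusted p = 0.00236), and Sema7a was at 2.88 ± 0.71; neither overlapped. All 12 macrophage markers, 5 of 10 T and NK cell markers and 5 of 10 fibroblast markers were also higher in Snf5-null tumours, with 1 fibroblast marker lower. Endothelial markers were lower for 5 of 12 and epithelial ones for 4 of 8, with 2 of 8 higher. Of 9 neuronal markers, 2 were higher and 2 lower. The part of these cells was not tested. Plxna1 without SS18-SSX Myf5 N428 was at -0.87 (adjusted p = 0.0591) in place of -1.58, Sema3f without N460 at -0.87 (adjusted p = 0.127) in place of -1.33, and Ntn5 without Snf5-null N1 at 2.50 in place of 4.61. The calls on Epha1, Efna1, Sema3f and Sema3b were lost in 6, 5, 5 and 4 of the fits that leave out 1 library.

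Across the 3 genotype comparisons, the members fell into a few patterns, described here without a test since the comparisons share libraries. In 16 members the combined tumours were higher than Snf5-null tumours, had no call against SS18-SSX tumours, and Snf5-null tumours were lower than SS18-SSX tumours: Epha8, Epha10, Ephb2, Ephb3, Ephb4, Efna3, Efna4, Efnb1, Sema3b, Sema3f, Sema4g, Slit1, Robo3, Ntn1, Unc5a and Unc5d. In 15, both genotypes without Smarcb1 were lower than SS18-SSX tumours with no call between them: Ephb1, Efnb2, Sema4f, Sema5a, Sema5b, Sema6a, Sema6c, Sema6d, the 4 class A plexins, Plxnc1, Robo1 and Unc5c. A middle level in combined tumours was called for 6, Epha4, Epha5, Efnb3, Plxnb1, Slit3 and Robo2. Sema4a and Sema4d were the 2 members lowest in combined and highest in Snf5-null tumours by all 3 calls. These patterns take the calls of the main fit, and some of those calls were lost in other fits. For combined against SS18-SSX tumours, Sema4d lost its call in 17 of the fits that leave out 1 library and Slit3 in 18. Another 9 had no call: Epha3, Efna2, Sema3d, Sema3e, Sema4c, Sema6b, Plxnb2, Plxnd1 and Slit2. Several members of the first pattern are neighbours in the genome by GENCODE M21 on GRCm38. Efna4 lies 10.4 kb from Efna3 on chromosome 3, which lies 32.8 kb from Efna1, which was of another pattern, being higher in combined than in SS18-SSX tumours as well; Epha8 lies 93.4 kb from Ephb2 on chromosome 4; and Sema3b lies 72.3 kb from Sema3f on chromosome 9. Robo3 and Robo4, 554 bases apart on opposite strands of chromosome 9, did not share a pattern. Of the promoter windows, those of the first pattern had a median of 23 CG pairs (11 members with a window), those of the second also 23 (12 members), and those of Sema3c, Sema3g, Sema4b, Plxnb3 and Ntn5, which were called high in Snf5-null tumours against both others, 8 with a range of 3 to 42 (5 members). The median was 30 for those with a middle level in combined tumours (5 members), 34 for Ephb6, Efna5 and Ntn4, called lowest in combined tumours with no call between the others, and 27 for those with no call (9 members).

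Few members, and few of all genes, were called between the Cre labels. In Snf5-null tumours 3 members were higher and 1 lower with Myf5 than with TATCre (4.69% and 1.56%, where 1.78% of all genes were higher, 3.19% lower and 4.97% either way). In the same edgeR test 18 of the 64 had an unadjusted p below 0.05. Sema3g, a secreted semaphorin of vessels, had 180.2, 205 and 121 CPM in Myf5 libraries, against 10.3, 10.5, 6.00, 5.95 and 9.32 CPM in TATCre libraries (4.32 ± 0.63, adjusted p = 0.00105). The groups lay far apart, and this call held without each library in turn. Ephb1 had 57.1, 76.4 and 57.2 CPM in Myf5 libraries, against 2.73, 6.90, 3.25, 12.8 and 2.73 CPM in TATCre libraries (3.48 ± 0.87, adjusted p = 0.0275). Epha1 had 4.69, 10.3 and 5.94 CPM in Myf5 libraries, against 1.28, 0.633, 0.110, 0.109 and 0.390 CPM in TATCre libraries (3.78 ± 1.05, adjusted p = 0.0451), and Sema5a 5.93, 4.58 and 3.94 CPM in Myf5 libraries, against 37.5, 17.9, 13.4, 21.6 and 95.5 CPM in TATCre libraries (-2.95 ± 0.80, adjusted p = 0.0394). The calls on Ephb1, Epha1 and Sema5a were lost in 6, 10 and 5 of the fits that leave out 1 library. Without Snf5-null TATCre N1 the counts were 6 higher and 6 lower. In combined tumours 0 members were called (0.571% of all genes were higher, 1.25% lower and 1.82% either way), with 10 at an unadjusted p below 0.05; DESeq2 called 1 higher and 7 lower. In SS18-SSX tumours 0 were called between Myf5 libraries and those with no Cre stated (1.25% of all genes were higher, 0.866% lower and 2.11% either way), with 2 at an unadjusted p below 0.05 and 1 by DESeq2. Those groups also carry different series numbers, so Cre label and number series cannot be told apart there. The difference of the Cre effect between combined and Snf5-null tumours was called for Sema3g at -6.16 ± 0.88 and Ephb1 at -4.78 ± 1.22 (adjusted p = 0.0027 and 0.0446), 2 members called lower and 0 higher, where 1.1% of all genes were lower, 1.32% higher and 2.42% either way. The call on Ephb1 was lost in 16 of the fits that leave out 1 library. In combined tumours Sema3g had 4.81, 5.12, 5.04 and 4.18 CPM in Myf5 libraries, against 52.1, 6.41, 2.57 and 7.74 CPM in TATCre libraries, and Ephb1 30.4, 29.1, 2.87 and 7.39 CPM in Myf5 libraries, against 109, 11.2, 50.4 and 1.80 CPM in TATCre libraries.

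Other genes of the pathway were taken as a list of 23 coreceptors and partners, 22 of them tested, and of 36 cytoplasmic effectors, all tested. In combined against Snf5-null tumours 8 coreceptors were higher and 5 lower (36.4% and 22.7%, where 29.1% and 20.5% of all genes were). Flrt1 and Islr2, membrane proteins with leucine-rich repeats, and Lrrc4c, a netrin-G ligand, were higher at 4.45, 3.84 and 3.31, and Dscam, a netrin receptor, was lower at -5.16. The neuropilins Nrp1 and Nrp2, coreceptors of Sema3 proteins named here after their values were seen, were lower at -2.04 and -1.41. Of the effectors 7 were higher and 12 lower (19.4% and 33.3%). Dpysl5 and Dpysl4, of the collapsin response mediator family that acts below Sema3a, were higher at 5.74 and 4.52, while the kinase Pak1 and the exchange factor Vav3 were lower at -4.56 and -3.81. Against SS18-SSX tumours, where 23.1% of all genes were higher and 21.9% lower, combined tumours had 1 coreceptor higher and 9 lower (4.55% and 40.9%), led by the adhesion molecules Cntn1 at -3.85, Nrcam at -3.67 and L1cam at -3.08 and by Lrrc4 at -3.05. They had 4 effectors higher and 19 lower (11.1% and 52.8%), among them Dpysl3 at -3.96 and the Slit-Robo GTPase activators Srgap1 at -3.65 and Srgap3 at -3.25. Snf5-null against SS18-SSX tumours gave 3 coreceptors higher and 13 lower (13.6% and 59.1%) and 8 effectors higher and 14 lower (22.2% and 38.9%), where 22.3% of all genes were higher and 25.9% lower, led by Dpysl5 at -7.57 and Cntn1 at -6.88. With Myf5 rather than TATCre in Snf5-null tumours 3 coreceptors were higher and 1 lower (13.6% and 4.55%, where 1.78% and 3.19% of all genes were). In combined tumours, where 0.571% of all genes were higher and 1.25% lower, Nrp1 and the effector Chn1, a Rac-inhibiting protein of Epha4 signalling, were lower at -2.45 and -4.29.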

How the data were processed

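The authors deposited raw read counts per gene; the submitters' processing notes name STAR 2.7.5a, featureCounts, RSEM, cutadapt, DESeq2 and mm10, with no role or order. Libraries were TruSeq Stranded mRNA, per the labels' protocols; the strand setting and the handling of multi-mapping reads are not given in the sources used here. No member shares over 5% of its 50-base words with other genes, but Efna3, Efna4, Plxna1 and Ntn5 have over 10% of exon bases under genes on the other strand, so their counts are less certain.

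From the counts, genes passing edgeR's filterByExpr (count minimum 10, total minimum 15) were scaled by TMM and fitted in 1 model of 6 group means over 22 libraries with edgeR 4.0.16 (R 4.3.3) and its quasi-likelihood test. Genotype contrasts average both groups of a genotype. Calls use a Benjamini-Hochberg adjusted p below 0.05 over 18929 genes, which hold 99.91% of counts; fold changes are log2, the first-named group over the second, and ± after one is its SE. CPM use TMM-adjusted sizes, and CPM per kb use GENCODE M21 exon length (48058 of 48440 IDs matched). DESeq2 1.42.0, RLE scaling, no filter, each Cre label alone, merged libraries and each library left out were alternatives. Contrasts for each Cre label alone were taken from the main fit. The code was tested on simulated data. The 31 pairs of libraries within groups differed beyond counting noise, so none was treated as a library deposited again. This does not show that N43L and N43R are separate animals. Their log2 CPM correlated at 0.982, where other pairs among N43L, N43R, N49 and N51 gave 0.951 to 0.964. In other groups, Snf5-null Myf5 N31 and N33 correlated at 0.987 and combined Myf5 N3 and N4 at 0.984. N43L and N43R, and separately N31 and N33, were also summed as alternatives.

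Members and lists were chosen with earlier results of these data known. Values were printed for up to 4 called members per family and comparison with the largest fold changes, and for 4 pathway genes per list. Other members were named after their values were seen.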

Additional observations from a re-analysis of the deposited data

Results flagged for a closer look

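Of 192 sets of values (64 members in 3 groups of 4 or 5 libraries), 14 had a library far from the rest of its group by Dixon's test, where chance gives about 1 in 20, or 9.6. Library N1 of the Snf5-null TATCre group held 7 of them. It was low for Epha4 (2.56 CPM, others 5.7 to 7.03), Ephb3 (3.43, others 48.8 to 72.8), Ephb4 (23.6, others 84.3 to 118), Slit2 (13.0, others 287 to 548) and Robo1 (10.4, others 51.1 to 72.5). It was high for Slit1 (21.0 CPM, others 1.32 to 2.64) and Ntn5 (14.8, others 0.0546 to 0.342). In the same group N49 was high for Efnb1 (31.7 CPM, others 14.4 to 15.9) and Unc5b (332, others 108 to 128), and N51 for Sema6a (16.7, others 6.94 to 8.25) and Plxnd1 (274, others 64.8 to 97.4).

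In combined tumours the Myf5 library N3 was low for Efna5 (0.776 CPM, others 7.45 to 10.3). Among combined TATCre libraries N49 was high for Epha5 (198 CPM, others 4.32 to 8.19) and 78777 for Plxna2 (116, others 17.5 to 18.0).

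The Myf5 against TATCre difference itself differed between combined and Snf5-null tumours for Sema3g (-6.16 ± 0.88, SE, edgeR adjusted p = 0.0027) and Ephb1 (-4.78 ± 1.22, adjusted p = 0.0446). Sema3g was higher in all 3 Snf5-null Myf5 libraries than in any of the other 19. The causes of these differences were not tested.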

How the results depend on the processing

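Leaving out 1 library at a time gave 20 to 27 members higher and 9 to 12 lower in combined against Snf5-null tumours, 3 to 6 and 23 to 27 in combined against SS18-SSX tumours, and 9 to 11 and 35 to 39 in Snf5-null against SS18-SSX tumours. For Myf5 against TATCre it gave 1 to 6 and 0 to 6 in Snf5-null tumours and 0 to 0 and 0 to 3 in combined tumours; for the difference between them 0 to 1 and 1 to 6; and for SS18-SSX Myf5 against no Cre stated 0 to 1 and 0 to 0. Without Snf5-null TATCre N1 the Snf5-null Cre comparison had 6 higher and 6 lower and the difference 6 lower. Of 35, 32 and 48 calls in the genotype comparisons, in that order, 26, 23 and 43 were kept without each library, and 33, 30 and 48 under RLE scaling, no filter and DESeq2. Under every alternative 17, 13 and 29 were kept.

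With TATCre libraries alone, 3 members were lower in combined against Snf5-null tumours, and Sema3g turned to 1.03 (adjusted p = 0.159). Combined against SS18-SSX tumours had 1 higher with Myf5 libraries alone, 3 higher with no filter, and 1 higher and 15 lower for TATCre against no Cre stated, where Ephb6 turned to 0.35 (adjusted p = 0.723). Snf5-null against SS18-SSX tumours had 5 higher with Myf5 libraries alone. DESeq2 gave 9 lower for the Cre labels in Snf5-null tumours, 1 higher and 7 lower in combined tumours, 2 higher and 4 lower for their difference, and 1 higher in SS18-SSX tumours. No filter gave 2 lower in combined tumours. Summing N31 and N33 gave 1 higher and 0 lower in Snf5-null tumours and 1 lower for the difference, and summing N43L and N43R also 1 lower for the difference. The cause was not tested. RLE scaling moved the median of all genes in combined against Snf5-null tumours to 0.12, from 0.24 under TMM, and the higher share of calls over all genes to 51.2%, from 58.7%. That share was 52.6% with DESeq2, 46.1% with no filter, 48.8% with genotype alone and 44.9% with N31 and N33 summed, and 44.7% to 63.7% without 1 library, so the balance over all genes turned. Tags N1 and N49 occur once each in combined and in Snf5-null tumours, N1 under different Cre labels; nothing says that they mark shared animals, and deviations from the group means correlated at -0.181 and -0.0581. A replicate block on these tags, chosen after seeing the data, gave 23 higher and 9 lower in that comparison and 0 higher and 4 lower for the difference of the Cre effects, where Ephb1 lost its call. For the other comparisons no paired analysis was possible because the groups compared share fewer than 2 replicate tags. Depth and 3 to 5 libraries per group limit precision for members near 0, such as Epha10, Plxnb3 and Ntn5.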
